A study of Mus musculus with 4 samples.

Results

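Weak CTCF sites found only in proliferating preosteoblasts were taken from the peak lists of a ChIP-seq time course of MC3T3-E1 subclone 4 cells, a calvaria-derived mouse line of strain C57BL/6. Peaks of the 3 lists that shared at least 1 bp were merged into union regions. Members were chosen by presence and score: a region on chromosomes 1 to 19 was taken when it held peaks of the day 0 list alone and its highest score was under 500. The rule chose 19938 regions of 70742 in the whole series, and of 68920 on chromosomes 1 to 19. Every member held exactly 1 day 0 peak. The same rule would choose 565 further regions on chromosomes X and Y, which are outside the definition.

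The stages were day 0, when cells proliferate, day 9, when they deposit matrix, and day 28, when they mineralize it. Cells were at passages 28 to 31, and differentiation was induced with ascorbic acid (280 µM) and beta-glycerophosphate (10 mM). The labels give 2 independent biological repeats of the CTCF library per time point, but each time point is represented by 1 peak list. The line is 1 subclone, and neither its proliferation nor its cell type could be checked against markers, since no expression was analysed here.

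CTCF is a zinc-finger protein that binds an extended DNA motif and, together with cohesin, stops loop extrusion at the anchors of chromatin loops and at insulators. Its binding sites span a wide range of affinities. Sites with a strong motif tend to be occupied in most cell types, whereas weaker sites vary more between cell types and are more readily lost when CTCF is limiting or the DNA is methylated. In ChIP-seq a weak site also lies close to the limit of detection, so that its presence in a list depends on sequencing depth.

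The score is the peak caller's value for each peak, taken to be -10 log10 of the peak's p-value. It grows with depth and has no replicate error here. Peaks numbered 67679 at day 0, against 42774 in the list of day 9 and 45793 in that of day 28. The lowest deposited scores were 100.01, 100 and 100, so the lists end at nearly the same score. Read totals were not analysed here, and the depth behind each list is unknown. With 1 list per stage no test between stages was possible. The 95% Wilson intervals below cover counting error only, and regions of 1 list are not replicates.

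The members were numerous and scored low within the day 0 list. They made up 28.9% of the union regions on chromosomes 1 to 19 and 29.5% of all day 0 peaks. They covered 9.88 Mb, which was 22.3% of the 44.4 Mb covered by the day 0 list. Their median score was 167.77 (quartiles 126 and 242), and 18.7% of all day 0 peaks scored lower than that median. These scores were used to choose the members and are given as a description.

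Scores piled up at the lower end of the list. There were 2195 members with a score under 110, which was 11.0% of them, and 8160 (40.9%) scored under 150. In steps of 10 the count fell to 1822 between 110 and 120 and to 1590 between 120 and 130, and the last step before the limit of 500 held 70. Only 1013 members (5.08%) scored 400 or more. The distribution had no peak of its own above the lowest deposited score, where the list ends.

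The limit of 500 did not coincide with a break in the values. Between 475 and 500 there were 180 members, and between 500 and 525 there were 171 day 0-only regions just outside the definition. Median widths were 515 bp inside and 507 bp outside. The highest-scoring members lay on chr2:35960439-35961358 (score 499.93), chr12:16648751-16649267 (499.9) and chr15:103196710-103197656 (499.88), in mm9 coordinates. The nearest regions outside lay on chr6:134389163-134390522 (score 500.15), chr5:131345701-131346129 (500.3) and chr19:27768131-27768618 (500.3). The lowest-scoring members lay on chr1:57105752-57105987 (100.01), chr8:127167583-127168275 (100.02) and chr12:85499811-85500238 (100.02).

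The first question was how often a weak day 0 site was found again. A weak day 0 region is one whose highest day 0 score was under 500, whatever its later scores. Of 30889 such regions on chromosomes 1 to 19, 19938 were the members. Another 5374 (17.4%, 16.98 to 17.8) were found at all stages, 3752 (12.1%, 11.8 to 12.5) at day 0 and day 28, and 1825 (5.91%, 5.65 to 6.18) at day 0 and day 9. The members' share of 64.5% (64.01 to 65.1) stands against 32.8% of all regions with a day 0 peak, and 31.0% of all union regions, being held by the day 0 list alone. Among the 34241 regions with a day 0 score of at least 500, 4.21% were found at day 0 alone. These shares follow from the rule and are read as a description. Limiting each list to 42774 peaks left 2910 weak day 0-only regions (40.9% of the weak regions then present), and a minimum score of 200 in every list left 11823 (77.3%). These settings also removed day 0 scores under 314.53 and under 200, so their shares are not at like score with 64.5%. In the full lists the share was 64.3% between 200 and 250, 46.2% between 300 and 350 and 27.9% between 450 and 500.

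Weak sites of the later lists were seldom confined to their own list. Of 19829 regions with a day 9 score under 500, 4.24% were found at day 9 alone, and of 19576 regions with a day 28 score under 500, 9.46% were found at day 28 alone. The day 0 list was the longest of the 3.

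The share found at day 0 alone fell steadily with the day 0 score. It was 84.0% (83.2 to 84.7) between 100 and 150, where 8160 of 9717 regions were members. Between 200 and 250 it was 64.3% (62.8 to 65.7), between 300 and 350 46.2% (44.3 to 48.2), and between 450 and 500 27.9% (25.8 to 30.2). Across the same bands the share found at all stages rose with the score, with 5.76% (5.32 to 6.24) in the lowest band and 46.9% (44.5 to 49.4) in the highest. Above 350 and below 400 the shares lay closest, with 39.7% at day 0 alone and 34.7% at all stages. Beyond the definition the decline went on without a step: 17.3% of regions scoring 500 to 750 were found at day 0 alone, 3.04% of those scoring 1000 to 1500 and 0.299% of those scoring 2000 to 3100.

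**Figure D1:**
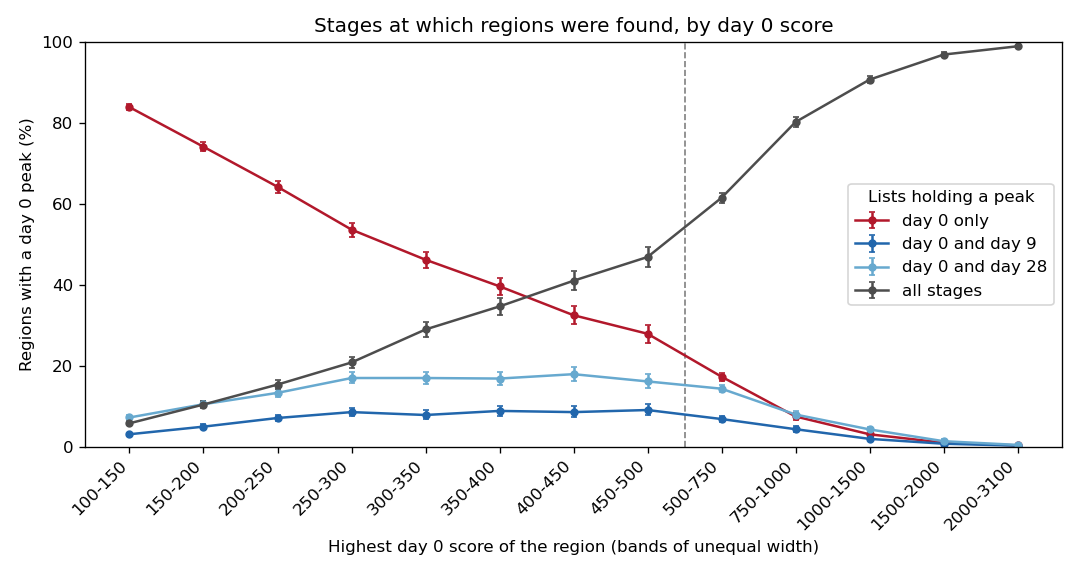
Share of regions with a day 0 peak on chromosomes 1 to 19 (vertical axis, percent, 95% Wilson intervals) held by each combination of lists, by band of the highest day 0 score (horizontal axis). The dashed line marks the limit of 500; the day 0-only share falls steadily across the bands, with 84.0% between 100 and 150 and 0.299% between 2000 and 3100.

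Regions found again at a single later stage were rarer at the lowest scores and spread more evenly from 200 to 500. The share found at day 0 and day 28 was 7.20% between 100 and 150 and 10.5% between 150 and 200. It lay between 13.3% and 17.9% in every band from 200 to 500. The share found at day 0 and day 9 was 3.06% between 100 and 150 and 4.94% between 150 and 200. From 200 to 500 it lay between 7.08% and 9.05%. In each of the 8 bands from 100 to 500 more weak regions were found again at day 28 than at day 9. In the lowest band the shares were 8.82% at day 9 and 13.0% at day 28, and in the highest 56.0% at day 9 and 63.0% at day 28. The day 28 list was also the longer of the later lists.

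The weak day 0 sites that were found again mostly scored under 200 in the later lists, whose lowest score was 100. At day 9, 7199 weak day 0 regions were found, with a median day 9 score of 153 (quartiles 121 and 221). Of these, 4989 (69.3%) scored under 200 at day 9, and 340 (4.72%) reached 500. At day 28, 9126 were found, with a median day 28 score of 182 (quartiles 130 and 318). There 5048 (55.3%) scored under 200 and 1187 (13.0%) reached 500. The median day 0 score of the regions found was 299 for day 9 and 287 for day 28. The later score was lower than the day 0 score in 78.7% of those found at day 9 and in 64.2% of those found at day 28.

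Within the weak range the later score hardly moved with the day 0 score. The median day 9 score was 143 for regions scoring 100 to 150 at day 0 and 168 for those scoring 450 to 500. The corresponding day 28 medians were 159 and 211. Only regions above the deposited minimum of 100 can be seen at the later stages, so these medians describe the part of each band that passed it. The lower quartile at day 9 was 128 in the highest weak band, close to that minimum.

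Scores of better-scored sites were also set side by side across the lists. Scores of 3100 or more were treated as tied and are called saturated. Among regions found at all stages, unsaturated in all lists and scoring 500 to 1000 at day 0, the median day 9 score was 239 and the median day 28 score 326, beside a median day 0 score of 726 (6363 regions). The median ratio of the day 9 to the day 0 score was 0.334, and that of the day 28 to the day 0 score was 0.455. Among the 7349 such regions scoring 1000 to 2000 at day 0, the ratios were 0.330 and 0.497. In the members' own score range, 100 to 500, the ratios were 0.630 and 0.896 over 5367 such regions. In each range the regions were chosen by their day 0 score and had to reach the lowest deposited score in every list. The ratios are therefore not a measure of scale alone. Between 450 and 500 at day 0, 46.9% of regions were found at all stages, and between 500 and 750 61.6% were. The part of the lower later scores in the members' absence was not tested.

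**Figure D2:**
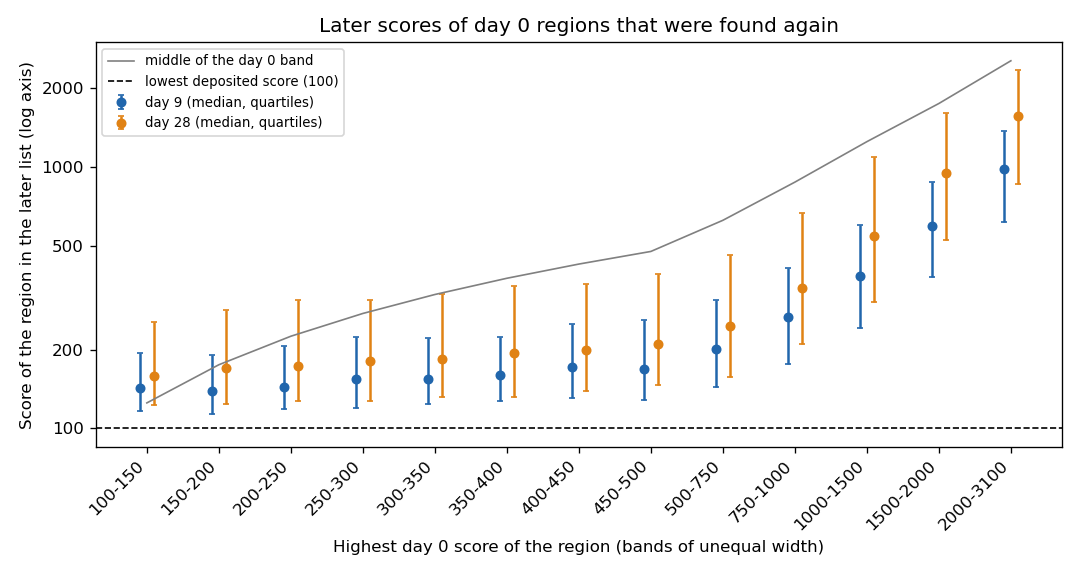
Score in the day 9 and the day 28 list (vertical axis, log scale; points are medians, bars quartiles) of day 0 regions found again, by band of the highest day 0 score (horizontal axis). The grey line is the middle of the day 0 band and the dashed line the lowest deposited score of 100; in every weak band from 200 to 500 the later medians lie under the grey line, between 144 and 211.

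Width was not used directly to choose the members, but a wider day 0 peak has more room to overlap a later peak. Their median width was 436 bp (quartiles 363 and 555), against 472 bp (409 and 558) for weak day 0 regions found at all stages. The day 0 peak was narrower still than in regions scoring at least 500 and found at all stages, whose median was 703 bp (555 and 942). Inserts were selected at 200 ± 50 bp, and 742 members (3.72%) were narrower than 250 bp, against 39 (0.726%) of the weak regions found at all stages. Over all weak regions, one found at all stages was wider than a member with a probability of 0.575 (0.566 to 0.584).

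Much of that difference followed the score. Within bands of like score the probability was 0.533 (0.508 to 0.558) between 100 and 150, 0.456 (0.429 to 0.482) between 300 and 350 and 0.511 (0.476 to 0.545) between 450 and 500. Over all weak regions the direction turned, to 0.483, when each list was limited to its 42774 top-scoring peaks, and to 0.484 when scores of at least 200 were required in every list. Medians in a band differed little: between 300 and 350 they were 486 bp for members and 474 bp for regions found at all stages.

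At like score the widths of members were more spread than those of regions found at all stages. Between 300 and 350 the quartiles were 404 and 724 bp for members, against 410 and 557 bp for regions found at all stages. Between 450 and 500 they were 409 and 823.5 bp for members, against 447 and 660 bp. Regions found again at 1 later stage were spread as far upwards in that band, with quartiles of 446 and 841 bp for day 0 and day 9 and of 452 and 847 bp for day 0 and day 28. Against regions found at all stages, the narrow tail was longer at low scores and the wide tail at higher ones. Between 100 and 200, 4.91% of members (4.54 to 5.30) were narrower than 250 bp, against 1.36% (0.839 to 2.20) of regions found at all stages. Between 400 and 500, 16.3% of members (14.1 to 18.7) were at least 1000 bp wide, against 5.88% (4.79 to 7.21) of regions found at all stages.

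Wide weak peaks were also frequent in regions found again at 1 later stage. Between 400 and 500 the share at least 1000 bp wide was 15.7% (11.98 to 20.3) for day 0 and day 9, and 14.2% (11.6 to 17.3) for day 0 and day 28. These intervals overlap that of the members. Between 200 and 300 the shares were 5.20% (4.58 to 5.89) for members, 3.89% (2.58 to 5.81) for day 0 and day 9, 2.47% (1.70 to 3.57) for day 0 and day 28, and 1.62% (1.06 to 2.46) for regions found at all stages.

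**Figure D3:**
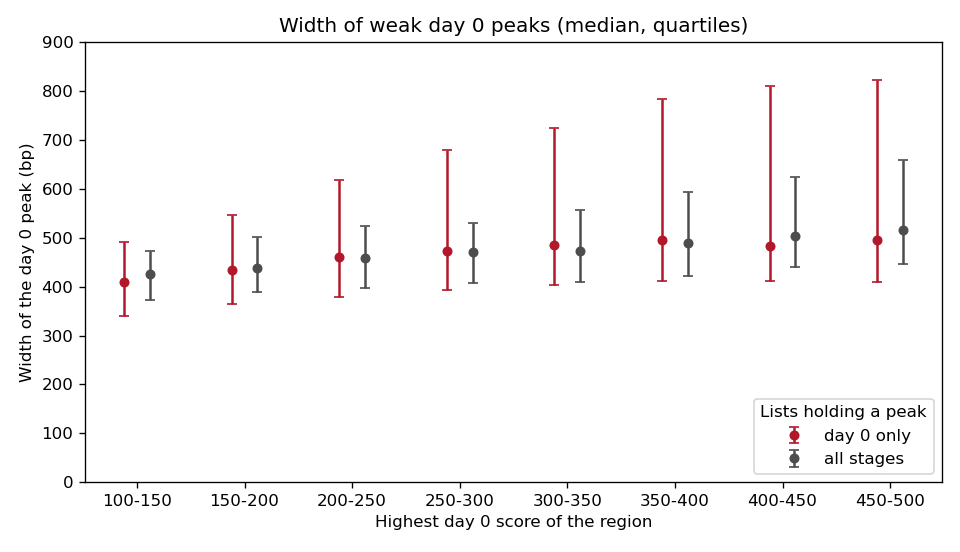
Width of the day 0 peak in bp (vertical axis; points are medians, bars quartiles) for weak regions found at day 0 only and at all stages, by band of the day 0 score (horizontal axis). Medians are close in every band, while the upper quartile of the members reaches 823.5 bp between 450 and 500, against 660 bp for regions found at all stages.

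The 777 members at least 1000 bp wide lay in denser surroundings than the others. Their median score was 298, against 166 for members of 250 to 1000 bp and 133 for those under 250 bp. The fixed 1 Mb window in which a wide member fell held a median of 70 union regions (quartiles 47 and 96). The median was 45 (27 and 68) for members of 250 to 1000 bp and 36.5 (21.25 and 56.75) for the narrow ones. These counts include the member itself. Of the wide members, 40.7% (37.3 to 44.2) lay within 5 kb of a region found at all stages, against 28.1% (27.5 to 28.8) of members of 250 to 1000 bp and 19.5% (16.8 to 22.5) of those under 250 bp. Width, score and surroundings moved together among the members, and their parts were not separated. This split by width was made after the values had been seen.

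Named by width, the widest members lay on chr5:14950861-14954774 (3914 bp, score 122.65), chr15:101932917-101935307 (2391 bp, score 308.45) and chr8:126124361-126126590 (2230 bp, score 478.76). The first was 7.62 kb from the nearest other region. The second lay 74 bp from a region found at all stages with a saturated day 0 score of 3100. The third lay 84 bp from another region. In all, 7 members were 2000 bp wide or more.

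The second question was whether a member lay beside a later peak that narrowly missed it. The median gap between a member and the nearest region with a day 9 or day 28 peak was 9.48 kb (quartiles 3.07 and 26.6 kb). Only 1400 members (7.02%, 6.68 to 7.38) had such a region within 500 bp, and 223 within 50 bp. The share within 500 bp was 7.29% (6.63 to 8.02) for weak regions found at all stages, measured to the nearest other region, and the intervals overlap. The nearest later region of those 1400 members was found at all stages in 1058 (75.6%) and itself held a day 0 peak in 1354. Their median day 0 score was 1129, and 1012 of them scored at least 500. In 46 cases (0.231% of all members) the nearby later region had no day 0 peak.

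The smallest gap to a later region was 1 bp, shared by 6 members. Those named by order were chr6:72183802-72184199 (score 318.46), chr7:16858768-16859580 (165.25) and chr7:52765407-52765840 (108.56). Beside the first lay a region found at all stages whose scores were 1130 (day 0), 110 (day 9) and 126 (day 28). The neighbour of the second scored 504, 136 and 120, and that of the third 171 at day 0 and 117 at day 28, with no day 9 peak. All of these later scores stood near the lowest deposited score of 100.

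Members lay slightly farther from constitutive CTCF sites than weak sites that were found throughout, and the gap widened with the score. The median distance to the nearest other region found at all stages was 12.7 kb (quartiles 4.14 and 36.2) for members, against 10.95 kb (3.65 and 27.6) for weak regions found at all stages. Within 5 kb of such a region lay 28.3% of members (27.7 to 28.9), against 31.3% (30.1 to 32.6). For regions of day 0 and day 28 the median was 11.6 kb and the share within 5 kb 30.2% (28.8 to 31.7), which overlaps the members' interval. Regions of day 0 and day 9 lay nearest, with 9.82 kb and 33.3% (31.2 to 35.5). Within 50 kb lay 80.9% of members (80.4 to 81.5), against 87.7% (86.8 to 88.5).

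The lowest-scoring members stood apart least. Between 100 and 150 the median distance was 11.8 kb for members and 11.8 kb for regions found at all stages. Between 300 and 350 it was 13.8 kb for members, against 10.2 kb, and between 450 and 500 it was 17.8 kb, against 10.6 kb. The probability that a member lay farther than a region found at all stages rose with the score, with 0.514 (0.489 to 0.538) in the lowest band, 0.549 (0.522 to 0.575) between 300 and 350 and 0.598 (0.564 to 0.632) in the highest.

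The median distance to any other union region was 5.97 kb (1.74 and 16.6) for members, against 5.61 kb (1.80 and 14.4) for weak regions found at all stages. Against regions found at all stages, members had both more very near and more very distant neighbours. Within 500 bp of another region lay 11.6% of members (11.1 to 12.01), against 9.69% (8.93 to 10.5), and within 50 kb lay 91.9% of members (91.5 to 92.2), against 95.1% (94.5 to 95.7). For regions of day 0 and day 28 the share within 500 bp was 11.2% (10.3 to 12.3), and for day 0 and day 9 10.6% (9.30 to 12.1). Both intervals overlap that of the members. Another member lay within 500 bp of 4.62% of members and of 2.53% of regions found at all stages. The farthest members were alone in long empty stretches. They lay on chr3:47034110-47034526 (score 106.93, 1381 kb from any other region), chr13:87575290-87575479 (123.69, 1197 kb) and chr5:61893929-61894614 (116.86, 893 kb).

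Constitutive sites with a day 0 score of at least 500, called strong here, divided chromosomes 1 to 19 into 30744 intervals. Members lay in 11301 of these (36.8%), with 1 member in 6668 intervals, 2 in 2621 and 3 or more in 2012. The fullest held 46. Intervals with a member had a median length of 57.6 kb, against 14.4 kb for those without. A longer interval has more room for any kind of region, so these lengths show no preference of the members for long intervals. Another 34 members lay beyond the outermost strong sites of their chromosomes.

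Weak sites of both kinds thinned out where strong sites were rare, and those found throughout thinned out more. In intervals under 10 kb there were 25.5 members per Mb and 6.45 weak regions found at all stages per Mb. In intervals over 1000 kb the densities were 1.96 and 0.290 per Mb. The members' share of weak day 0 regions stayed between 62.6% and 64.4% in the classes up to 300 kb. It was 70.5% (68.9 to 72.0) between 300 and 1000 kb and 76.6% (74.1 to 78.8) over 1000 kb. Among regions scoring 100 to 200 the share dipped in the middle classes: it was 83.1% (80.2 to 85.7) under 10 kb, 77.2% (75.9 to 78.4) between 100 and 300 kb, 82.8% (81.0 to 84.5) between 300 and 1000 kb and 85.1% (82.2 to 87.6) over 1000 kb. At these low scores the classes at both ends had overlapping intervals.

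**Figure D4:**
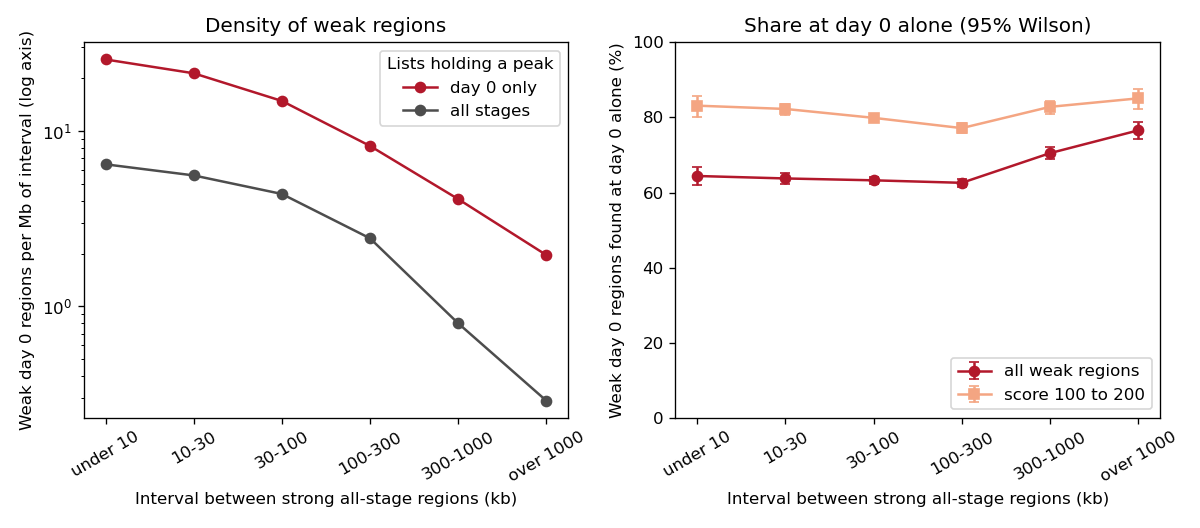
Left, weak day 0 regions per Mb (vertical axis, log scale) found at day 0 only and at all stages, by length of the interval between strong all-stage regions in kb (horizontal axis). Right, the share of weak regions found at day 0 alone with 95% Wilson intervals, for all weak regions and for scores of 100 to 200; among all weak regions it is 76.6% over 1000 kb and 64.4% under 10 kb.

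Members followed each other along the chromosome slightly more often than they followed other regions. The next region after a member was a member in 32.5% (31.8 to 33.1) of cases, against 25.6% (24.4 to 26.8) after a weak region found at all stages and 28.9% (28.6 to 29.3) after any union region. The members formed 13470 unbroken runs. A member stood alone in 9272 of these, which was 46.5% of members. There were 188 runs of 5 or more, holding 1077 members, and the longest had 14.

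The fullest 1 Mb windows also held many regions found at all stages. Chromosome 8 at 126 to 127 Mb held 69 members among 129 union regions, with scores of 101.9 to 478.76 and a median of 218. Chromosome 2 at 167 to 168 Mb held 54 among 142 regions, and chromosome 6 at 114 to 115 Mb held 51 among 94. Regions found at all stages numbered 41, 62 and 30 in these windows. Of 2383 windows with any union region, 2272 (95.3%) held a member, and the median number was 6.

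Chromosomes differed in how many of their weak day 0 sites were found at day 0 alone. The share was highest on chromosome 19 (71.8%, 69.1 to 74.4, 777 of 1082 regions), chromosome 2 (69.3%, 67.5 to 71.04) and chromosome 5 (69.1%, 67.2 to 71.0). The lowest shares were those of chromosome 1 (53.7%, 51.3 to 56.0, 935 of 1742 regions), chromosome 14 (54.2%, 51.1 to 57.2) and chromosome 17 (58.0%, 55.3 to 60.6). The remaining 13 chromosomes lay between 62.4% and 67.7%, with neighbours in this order overlapping in their intervals.

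The shares were also compared within a band of low scores. Among regions scoring 100 to 200 the share was 85.6% (82.5 to 88.2) on chromosome 19, against 70.4% (66.3 to 74.3) on chromosome 14 and 73.5% (70.5 to 76.4) on chromosome 1. Members of chromosome 19 had a median score of 167, those of chromosome 14 of 166 and those of chromosome 1 of 158. Members were densest on chromosome 19 (13.3 per Mb) and chromosome 11 (12.5 per Mb) and sparsest on chromosome 14 (4.54 per Mb) and chromosome 1 (4.85 per Mb). Regions found at all stages stood at 20.4, 24.5, 10.8 and 12.5 per Mb on the same chromosomes.

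The low shares had different partners. On chromosome 17, 12.7% of weak day 0 regions were found at day 0 and day 9, the highest of the 19 chromosomes, and 8.45% at day 0 and day 28, the lowest. On chromosome 1, 26.2% were found at all stages and on chromosome 14 24.4%, against 10.6% on chromosome 19.

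**Figure D5:**
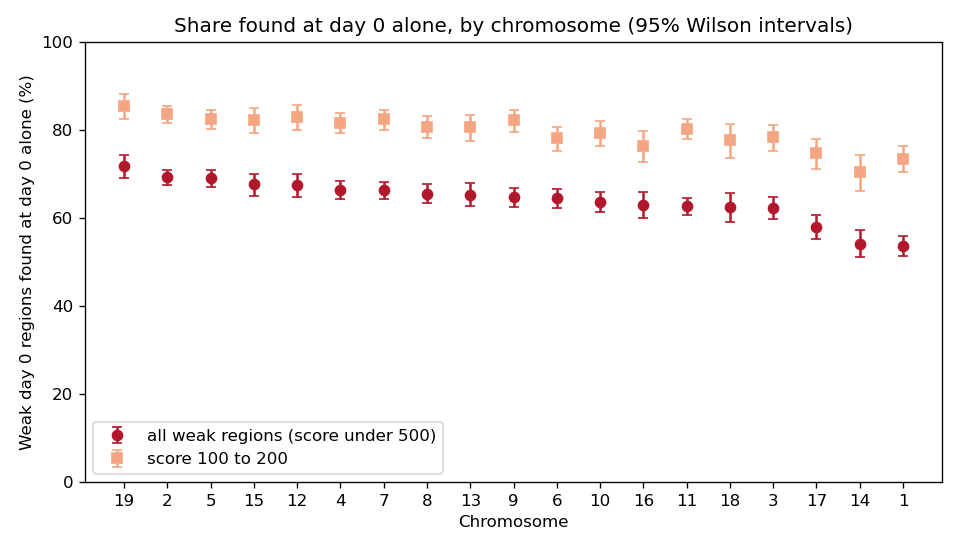
Share of weak day 0 regions found at day 0 alone (vertical axis, percent, 95% Wilson intervals) on chromosomes 1 to 19, ordered by that share (horizontal axis), for all weak regions and for scores of 100 to 200. Chromosome 19 stands highest with 71.8%, and chromosomes 17, 14 and 1 lie below the others at 58.0%, 54.2% and 53.7%.

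The share also varied between bins of 4 Mb. Bins of all chromosomes were pooled, so the differences between chromosomes are part of this spread. Over 497 bins of 4 Mb with at least 20 weak day 0 regions and 5 ranked shared regions, the share had a median of 64.0% (quartiles 57.5% and 69.7%) and an SD of 9.97 percentage points. Counting error at the pooled share of 64.5% would give 7.17. The Wilson interval lay wholly above the pooled share in 40 bins and wholly below it in 44.

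The highest shares were on chromosome 7 at 0 to 4 Mb (22 of 23 weak regions, 95.7%, 79.0 to 99.2), chromosome 12 at 116 to 120 Mb (39 of 44, 88.6%, 76.0 to 95.05) and chromosome 12 at 28 to 32 Mb (33 of 38, 86.8%, 72.7 to 94.2). The lowest were on chromosome 1 at 84 to 88 Mb (4 of 20, 20%, 8.07 to 41.6), chromosome 8 at 80 to 84 Mb (12 of 41, 29.3%, 17.6 to 44.5) and chromosome 14 at 68 to 72 Mb (14 of 44, 31.8%, 20 to 46.6). Named as the ends of 497 ordered bins, these values are the extremes of that spread.

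In these bins the rank of sites found at all stages was set beside the members' share. Ranks are percentiles of the score within each list, over 23673 regions with 1 peak per list and no saturated score. In the 3 bins with the highest shares the median shift of such regions was -9.06, -6.75 and -0.48 percentile points for day 9 minus day 0, and -18.6, -9.67 and -11.4 for day 28 minus day 0. In the 3 bins with the lowest shares, chromosome 1 first, it was 12.8, 12.1 and 12.1 for day 9 minus day 0, and 4.90, 7.32 and 7.05 for day 28 minus day 0. Over the fifth of bins with the highest shares (71.1% to 95.7%, 100 bins) the medians were -2.50 and -4.58. Over the fifth with the lowest shares (20% to 55.7%, 100 bins) they were 3.92 and 4.71. The day 9 minus day 0 shift was above 0 in 30 of the 100 bins with high shares and in 83 of the 100 bins with low shares. Both measures come from the same 3 lists, so they are not independent. The median day 0 score of weak regions was 190 in the bins with high shares and 208 in those with low shares.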

How the data were processed

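CTCF peaks were measured by ChIP-seq in MC3T3-E1 cells at day 0, day 9 and day 28, with inserts of 200 ± 50 bp read for 36 bases, per the labels' protocols. The submitters' processing notes name build mm9, the peak caller MACS 1.4.1, Bowtie 0.12.8 and CASAVA 1.6. The authors deposited 1 peak list per time point, with a score for each peak. How the 2 repeats and the input entered a list is not given in the sources used here. The input was not analysed here.

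Lists were merged and described with Python 3.11.15, pandas 2.3.3, numpy 2.4.6 and scipy 1.17.1, with code tested on simulated peak lists. Positions are counted from 1. Gaps run between region edges, and widths are those of the highest-scoring day 0 peak. Probabilities are the Mann-Whitney statistic over the product of the group sizes, with Hanley-McNeil 95% intervals. The members, comparisons and lists were chosen with earlier results of these data known. Named regions are the 3 first of each ordering, leaving out chromosome 18. The gene table provided is of another build, GRCm38, so no gene, sequence or motif was assigned.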

Additional observations from a re-analysis of the deposited data

How the results depend on the processing

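The number of members kept within 1.5 times of 19938 under 6 of 8 alternatives. At equal list size (42774 peaks each, which keeps day 0 scores of at least 314.53) it was 2910, of which 2600 are among the 19938. With scores of at least 200 in every list it was 11823, of which 7390 are among them, because this minimum also removes later peaks. The share at day 0 alone (64.5%) became 60.0% when later peaks within 500 bp counted as the same site, 40.9% at equal list size, 77.3% with scores of at least 200, and 73.7% and 58.4% with upper limits of 300 and 700. It was 70.5% without the day 9 list and 76.7% without the day 28 list, settings chosen after seeing the data. In this order of settings the median width (436 bp) was 432, 495, 484, 429, 439, 440 and 441 bp. Equal list size, the minimum of 200 and the other upper limits change the range of day 0 scores. Their shares and widths are therefore not compared at like score.

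The probability that a region found again at both later stages is wider than a member (0.575) turned to 0.483 at equal list size and 0.484 with scores of at least 200; both settings drop the lowest scores. It was 0.595 with the 500 bp gap, 0.539 and 0.613 with limits of 300 and 700, and 0.562 without the day 9 list. The median distance to any region (5.97 kb) was 6.80 kb with the 500 bp gap, 10.1 kb at equal list size and 7.79 kb with scores of at least 200. The share within 5 kb of a region found at all stages (28.3%) was 24.2%, 24.5% and 24.0% in these settings, and 31.9% and 31.1% without the day 9 and the day 28 list. Requiring an overlap of 50% of the shorter peak gave 20085 members, a number without an interval. It moved none of the other results beyond counting error. No paired analysis was possible because each stage has 1 list. Depth is unknown and limits every statement of absence.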
